A study of Mus musculus with 22 samples.

Results

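Mrc1, Cd163, Lyve1, Pf4, F13a1, Cbr2, Stab1, Ccl8 and Ccl24 are 9 genes used as markers of border-associated macrophages, and they were followed here through RNA of sorted mouse brain microglia. They were taken by symbol from a deposited table of 54532 genes, and each symbol matched a single row. The list was chosen with earlier results of these data known. Border-associated macrophages live along the vessels (perivascular macrophages), in the meninges and in the choroid plexus, outside the nervous tissue proper. Microglia live inside that tissue. Both are long-lived brain macrophages that carry CD45 and CD11b, so a sort on these proteins can hold some of each. The marker genes fall into scavenger and endocytic receptors (Mrc1, Cd163, Stab1, Lyve1), enzymes (F13a1, Cbr2) and chemokines (Pf4, Ccl8, Ccl24). Several of them are also known to respond to cytokines and hormones in macrophages of other tissues.

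All mice were male C57BL/6J. At 10 weeks of age they had received 10 daily intraperitoneal injections of either vehicle (Ctrl) or Gulf War chemicals (GW), which were pyridostigmine bromide at 0.7 mg/kg, an acetylcholinesterase inhibitor, and permethrin at 200 mg/kg, a pyrethroid insecticide. At 17.5 months some GW mice were given cannabidiol (CBD, a plant cannabinoid, 30 mg/kg in Tween 80 and PBS) daily for 28 days and then every 2 days for 2 weeks, while all other mice received the carrier. Lipopolysaccharide (LPS, a component of the outer membrane of Escherichia coli, 0.33 mg/kg) or PBS was injected 24 hours before the brains were taken. The 6 groups were Ctrl-PBS (n = 4), Ctrl-LPS (n = 4), GW-PBS (n = 4), GW-LPS (n = 3), GW-CBD-PBS (n = 3) and GW-CBD-LPS (n = 4). CBD without Gulf War chemicals was not analysed here. No label ties a library to a single animal, and the p-values therefore measure the spread between libraries. The labels describe the cells as live, CD45mid, CD11b+ and CD11a- events of a flow cytometric sort, taken from dissociated brain after myelin removal. They do not say how the meninges were handled.

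Library totals ran from 28676930 to 40458326 counts, and levels are CPM values, which are counts scaled to a common library size with TMM factors. The microglial markers P2ry12 and Tmem119 ran from 943 to 6670 CPM and from 4298 to 7194 CPM over the 22 libraries. Of the sort-gate genes, Ptprc (CD45) and Itgam (CD11b) were at 183 to 410.0 CPM and 251 to 561 CPM, and Itgal (CD11a, which the gate excludes) at 0.026 to 36.5 CPM. Ctrl-PBS replicate 3, Ctrl-LPS replicate 1 and GW-PBS replicate 1 stood apart by neutrophil markers (11 genes, summed 26396 CPM, 3066 CPM and 1871 CPM, against at most 329 CPM elsewhere). GW-CBD-PBS replicate 3 had the highest level of its group for 8 of the 9 marker genes, and GW-LPS replicate 3 had the lowest summed microglial markers of all libraries (20780 CPM over 10 genes). Results that rest on these libraries are given with and without them.

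Every one of the 9 genes was measured well above the detection limit, from 44 counts (Ccl24 in Ctrl-LPS replicate 1) to 24102 counts (Stab1 in GW-CBD-LPS replicate 2), and all 9 passed the filter on low counts. Compared as mean CPM per kilobase of exon over all libraries, Pf4 (42.8) and Stab1 (42.6) were the most abundant, followed by Cbr2 (34.4), Ccl8 (23.9) and F13a1 (18.5). Ccl24 (9.09), Mrc1 (8.78), Lyve1 (7.73) and Cd163 (6.48) were lower. On the same scale Tmem119 stood at 2517 and P2ry12 at 1511. The widest span between libraries was that of Ccl24, 20.1-fold between the lowest and the highest CPM, and the narrowest that of Stab1, 2.18-fold.

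Start regions of 4 of the genes are shown. Of these, Cd163, F13a1 and Stab1 were positively correlated between libraries of a group, and Ccl8 was inversely related to Stab1. Mrc1 was also positively correlated with Cd163 and F13a1, and its start region is not shown. Whether these sequences bear on the correlations was not tested. RefSeq start regions of GRCm38.p6 were found for 7 of the 9 genes, and Lyve1 and Ccl24 had no entry in the table used. Each run holds the 250 bases before the start, read 5′ to 3′ on the strand of the gene. Capitals mark a match on either strand to GAGGAA (core of PU.1, the myeloid master regulator), TGCTGA (a Maf half-site) or AGAACA (a half-site of the glucocorticoid receptor). The runs lie at chr6:124304401-124304650 (plus strand, Cd163), chr13:37050245-37050494 (minus strand, F13a1, the first of 2 entries), chr14:31168642-31168891 (minus strand, Stab1) and chr11:82114935-82115184 (plus strand, Ccl8).
Cd163: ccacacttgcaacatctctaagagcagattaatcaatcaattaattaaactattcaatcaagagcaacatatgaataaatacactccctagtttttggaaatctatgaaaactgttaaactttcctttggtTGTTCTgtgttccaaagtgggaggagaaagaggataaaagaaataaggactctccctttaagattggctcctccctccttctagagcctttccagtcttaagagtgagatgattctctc
F13a1: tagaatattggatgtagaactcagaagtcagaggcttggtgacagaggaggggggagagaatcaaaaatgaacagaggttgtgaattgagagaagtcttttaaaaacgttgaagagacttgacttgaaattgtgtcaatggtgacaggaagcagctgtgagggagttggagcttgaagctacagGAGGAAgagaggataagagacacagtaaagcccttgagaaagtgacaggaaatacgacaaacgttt
Stab1: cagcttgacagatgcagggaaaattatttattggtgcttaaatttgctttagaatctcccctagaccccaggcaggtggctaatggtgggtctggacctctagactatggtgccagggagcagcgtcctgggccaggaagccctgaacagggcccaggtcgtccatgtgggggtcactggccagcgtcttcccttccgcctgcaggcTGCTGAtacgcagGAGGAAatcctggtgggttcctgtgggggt
Ccl8: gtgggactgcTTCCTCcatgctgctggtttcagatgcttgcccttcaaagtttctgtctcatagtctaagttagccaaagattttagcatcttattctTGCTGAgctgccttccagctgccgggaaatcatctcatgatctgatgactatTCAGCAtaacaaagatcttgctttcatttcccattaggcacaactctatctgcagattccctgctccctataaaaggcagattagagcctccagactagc
In windows that also took in 50 bases after the start, GAGGAA was found on either strand in 6 of the 7 genes (all but Cd163), against 28.3% of 32851 start regions of the same length. TGCTGA was found in 3 of 7 (Cbr2, Stab1 and Ccl8) against 19.5%, and AGAACA in 1 of 7 (Cd163) against 19.0%. Neither TTCNNNGAA (STAT factors) nor GAAANN followed directly by GAAA (interferon-stimulated response element), present in 8.3% and 3.44% of start regions, occurred in the 7 windows. None of these motifs overlaps another in the runs shown. A match describes letters only, and binding was not measured.

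Cd163 encodes the haemoglobin-haptoglobin scavenger receptor (chr6:124304656-124330527, GRCm38, plus strand). Its levels in the 4 Ctrl-PBS libraries were 26.4, 18.2, 29.1 and 30.4 CPM, and in the 4 Ctrl-LPS libraries 40.05, 56.9, 30.3 and 63.6 CPM. GW-PBS libraries held 12.99, 28.4, 23.02 and 17.7 CPM, and GW-LPS libraries 32.7, 102 and 62.2 CPM. All 3 GW-LPS libraries lay above all 4 GW-PBS libraries, with GW-LPS replicate 3 at the top of the whole series, while Ctrl-LPS and Ctrl-PBS touched at their ends. In the CBD-treated mice the levels were 27.7, 45.7 and 25.0 CPM with PBS and 25.8, 36.1, 24.1 and 19.6 CPM with LPS. The LPS-injected CBD mice therefore lay in the range of the PBS groups, and only their highest library exceeded the lowest GW-LPS library. Cd163 rose with LPS in GW mice by 1.68 ± 0.34 (log2 fold change ± SE, edgeR quasi-likelihood test, adjusted p = 0.00379), a 3.20-fold difference. Without GW-LPS replicate 3 the difference was 1.20 (adjusted p = 0.0451). In bulk libraries such as these, fewer cells of a type and less RNA per cell cannot be told apart, for this and every other gene.

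F13a1 encodes the A subunit of coagulation factor XIII, a transglutaminase that macrophages make (chr13:36867178-37050244, minus strand). With PBS it stood at 90.8, 74.7, 137 and 97.4 CPM in control mice and at 33.1, 103, 65.8 and 62.8 CPM in GW mice. With LPS it stood at 116, 191, 154 and 189 CPM in control mice and at 169, 194 and 262 CPM in GW mice. The GW-LPS libraries were all above the GW-PBS libraries, and in control mice the lowest LPS library lay below the highest PBS library. CBD-treated mice had 84.8, 158 and 86.7 CPM with PBS and 116, 183, 98.8 and 79.8 CPM with LPS, 2 sets that overlapped almost fully. F13a1 rose by 1.66 ± 0.33 with LPS in GW mice (adjusted p = 0.00295), and its difference in control mice, 0.70 ± 0.30, did not pass (adjusted p = 0.108). The antisense genes Gm30489 and Gm49144 that overlap it reached at most 0.21 CPM.

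Stab1 encodes stabilin 1, a large scavenger receptor for acetylated lipoprotein and SPARC (chr14:31139013-31168641, minus strand). Ctrl-PBS libraries held 335, 325, 343 and 393 CPM and Ctrl-LPS libraries 422, 593, 456 and 581 CPM. GW-PBS libraries held 298, 498, 310.1 and 377 CPM and GW-LPS libraries 526, 650.0 and 603 CPM. In both arms every LPS library lay above every PBS library. CBD-treated mice had 439, 358 and 409 CPM with PBS and 414, 626, 364 and 325 CPM with LPS, where the LPS libraries enclosed the PBS libraries. Stab1 rose by 0.56 ± 0.18 in control mice (adjusted p = 0.0375) and by 0.68 ± 0.20 in GW mice (adjusted p = 0.0344). These are the smallest of the called changes, and Stab1 was also the gene with the most counts. Nt5dc2, a protein-coding gene on the opposite strand that overlaps Stab1, was at 32.4 to 82.9 CPM, and the strand setting of the counting is not given in the sources used here (Nt5dc2 was chosen after its values were seen). With PBS and LPS it was at 34.3 to 42.9 and 49.9 to 68.4 CPM in control mice and at 38.8 to 47.5 and 41.6 to 55.4 CPM in GW mice. In CBD-treated mice it was at 32.4 to 42.4 and 49.05 to 82.9 CPM. Its part in the Stab1 values was not tested.

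Lyve1 encodes a hyaluronan receptor of lymphatic endothelium and of a subset of vessel-associated macrophages (chr7:110850607-110863239, minus strand). Its Ctrl-PBS levels were 16.3, 13.3, 19.6 and 18.6 CPM, and its Ctrl-LPS levels 19.6, 46.4, 26.6 and 45.5 CPM. GW-PBS libraries held 11.04, 10.5, 10.2 and 22.3 CPM, the last apart from the others, and GW-LPS libraries 27.6, 42.8 and 38.2 CPM. GW-LPS lay wholly above GW-PBS, while Ctrl-LPS replicate 1 sat level with the highest Ctrl-PBS library. With CBD the levels were 16.0, 34.9 and 12.4 CPM after PBS and 17.7, 13.96, 18.3 and 15.04 CPM after LPS, so all 4 LPS libraries of the CBD mice lay below all 3 GW-LPS libraries. Lyve1 rose with LPS by 1.03 ± 0.32 in control mice (adjusted p = 0.0252) and by 1.42 ± 0.34 in GW mice (adjusted p = 0.0115). Of the lymphatic endothelial genes, Prox1 was at 2.41 to 6.16 CPM and Flt4 at no more than 0.65 CPM in any library.

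Mrc1 encodes the mannose receptor CD206 (chr2:14229392-14332057, plus strand), whose locus also holds the miRNA gene Mir511. Group means ± SD in CPM were 60.5 ± 16.1 in Ctrl-PBS, 35.5 ± 10.4 in Ctrl-LPS, 49.5 ± 14.5 in GW-PBS, 68.4 ± 16.6 in GW-LPS, 73.9 ± 31.2 in GW-CBD-PBS and 55.3 ± 21.3 in GW-CBD-LPS. The highest library was GW-CBD-PBS replicate 3 (109 CPM) and the lowest Ctrl-LPS replicate 1 (22.7 CPM). Among the receptors it had the only negative LPS difference in control mice, -0.77 ± 0.29 (adjusted p = 0.0707), against 0.46 ± 0.31 in GW mice (adjusted p = 0.393). After LPS the GW libraries (49.4, 75.5 and 80.2 CPM) lay above all control libraries (22.7, 34.4, 48.0 and 37.0 CPM), with a difference of 0.94 ± 0.31 that did not pass over all genes (adjusted p = 0.310).

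Cbr2 encodes carbonyl reductase 2, an NADPH-dependent enzyme (chr11:120729489-120732114, minus strand). It was at 32.6, 45.1, 40.7 and 36.3 CPM in Ctrl-PBS and at 43.5, 67.9, 60.0 and 95.1 CPM in Ctrl-LPS, where the lowest LPS library lay below the highest PBS library. Means in the other groups were 36.6 ± 6.65 CPM in GW-PBS, 53.3 ± 18.2 CPM in GW-LPS, 34.6 ± 16.8 CPM in GW-CBD-PBS and 43.6 ± 11.3 CPM in GW-CBD-LPS. Cbr2 rose in control mice by 0.78 ± 0.27 (adjusted p = 0.0442), a call lost when any library but Ctrl-LPS replicate 1 was left out. In GW mice the difference was 0.54 ± 0.29 (adjusted p = 0.258).

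Pf4 encodes platelet factor 4 (CXCL4), a chemokine made by megakaryocytes and by tissue macrophages (chr5:90772435-90773383, plus strand). Its means were 40.1 ± 9.55 CPM in Ctrl-PBS, 27.3 ± 10.6 CPM in Ctrl-LPS, 36.5 ± 11.8 CPM in GW-PBS, 20.1 ± 7.55 CPM in GW-LPS, 28.9 ± 14.6 CPM in GW-CBD-PBS and 29.2 ± 10.7 CPM in GW-CBD-LPS. It passed in no comparison of the main model, with LPS differences of -0.56 ± 0.34 in control mice (adjusted p = 0.262) and -0.86 ± 0.37 in GW mice (adjusted p = 0.155). Of the platelet genes, Ppbp stayed at or below 1.76 CPM and Itga2b at or below 2.88 CPM, and Gp1bb, chosen after its values were seen, had no count in any of the 22 libraries. The 9 platelet and megakaryocyte markers summed to 27.4 to 39.1 CPM in Ctrl-PBS, 6.44 to 13.2 CPM in Ctrl-LPS, 23.1 to 54.4 CPM in GW-PBS and 8.76 to 11.95 CPM in GW-LPS. Most of that sum was Gp9 (4.74 to 45.4 CPM, chosen after its values were seen), and its part in the Pf4 values was not tested.

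Ccl24 encodes eotaxin 2, a chemokine that acts through CCR3 on eosinophils (chr5:135569937-135573049, minus strand). It was at 15.1, 22.5, 16.6 and 21.1 CPM in Ctrl-PBS and at 1.54, 2.97, 4.38 and 1.86 CPM in Ctrl-LPS. Every LPS library of the control mice thus lay below every PBS library of any group, and Ccl24 fell by 2.80 ± 0.47 on the log2 scale (adjusted p = 0.000232), to 0.144 of its PBS level. In GW mice it was at 16.3, 6.58, 12.3 and 19.5 CPM with PBS and at 3.65, 12.5 and 6.91 CPM with LPS, overlapping sets that differed by -0.83 ± 0.47 (adjusted p = 0.297). CBD-treated mice had 17.6, 31.0 and 9.14 CPM with PBS and 5.33, 6.86, 16.3 and 8.90 CPM with LPS, a difference of -1.04 ± 0.46 (adjusted p = 0.403).

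Ccl8 encodes monocyte chemoattractant protein 2 (chr11:82115185-82116799, plus strand). Ctrl-PBS held 8.28, 9.86, 11.1 and 8.61 CPM and Ctrl-LPS 12.5, 5.11, 13.9 and 6.29 CPM. In GW mice the levels were 14.2, 14.03, 18.7 and 14.7 CPM with PBS and 10.9, 4.42 and 8.36 CPM with LPS. Both the control libraries with PBS and the GW libraries with LPS lay wholly below GW-PBS. In CBD-treated mice the levels were 9.38, 14.5 and 4.57 CPM with PBS and 17.8, 13.2, 15.7 and 32.7 CPM with LPS, the last being the highest of the series. Ccl8 passed in no single comparison. Its LPS difference was 0.00 ± 0.36 in control mice (adjusted p = 0.996), -0.96 ± 0.39 in GW mice (adjusted p = 0.133) and 1.06 ± 0.39 in CBD-treated GW mice (adjusted p = 0.303).

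**Figure D1:**
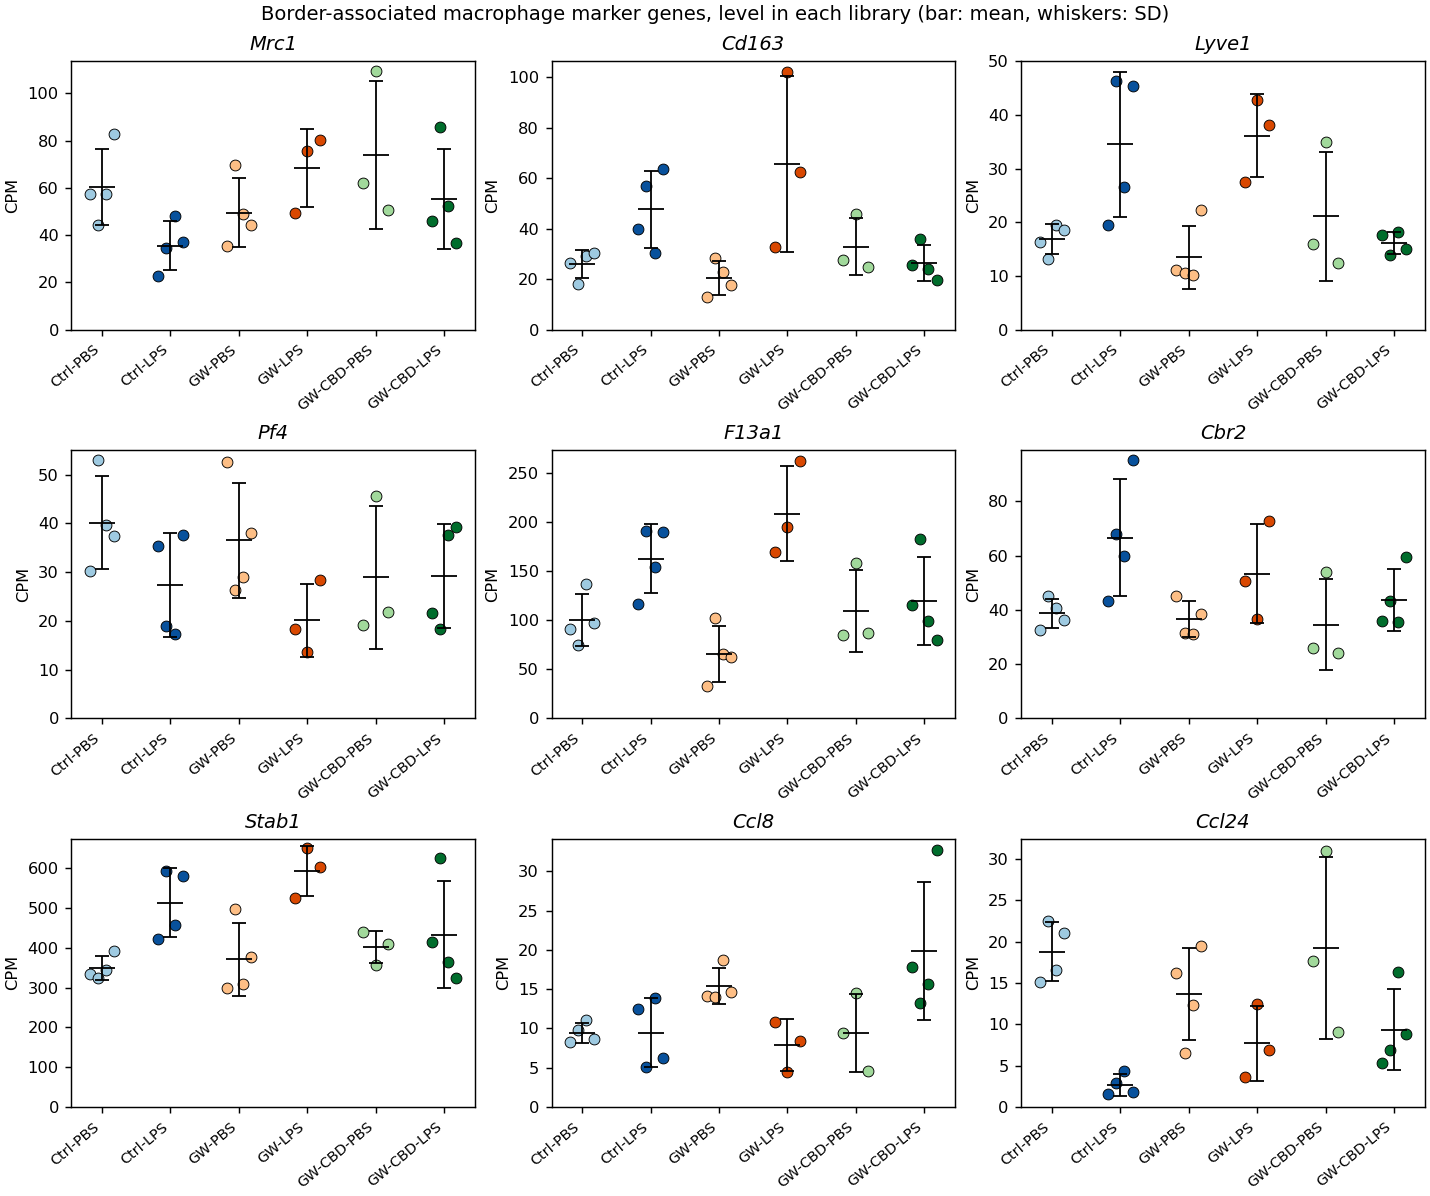
Level of each of the 9 genes in CPM (linear axis from 0) in the 22 libraries, by group. Points are libraries, horizontal bars group means and whiskers SD. For Cd163, F13a1, Stab1 and Lyve1 the 3 GW-LPS points lie above the 4 GW-PBS points, and for Ccl24 the 4 Ctrl-LPS points (1.54 to 4.38 CPM) lie below all PBS points.

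Over the 6 groups, Cd163, F13a1, Stab1 and Lyve1 shared one order at the top, with GW-LPS first and Ctrl-LPS second. Cbr2 had Ctrl-LPS first and GW-LPS second. Pf4 was highest in Ctrl-PBS and Ccl8 in GW-CBD-LPS. Mrc1 and Ccl24 were highest in GW-CBD-PBS only with its replicate 3. Without that library the GW-CBD-PBS mean of Mrc1 was 56.2 CPM rather than 73.9 CPM, below GW-LPS and Ctrl-PBS. That of Ccl24 was then 13.4 CPM rather than 19.3 CPM, below Ctrl-PBS and GW-PBS. Ranges of neighbouring groups in these orders overlapped for all 9 genes. Neighbouring means differed by more than the larger of their SDs for F13a1 between Ctrl-PBS and GW-PBS, for Ccl8 between GW-PBS and GW-CBD-PBS and for Ccl24 between GW-LPS and Ctrl-LPS. In a test of any difference among the 6 groups, 6 of 9 genes passed (Cd163, Lyve1, F13a1, Stab1, Ccl8 and Ccl24), against 20.1% of the 16554 genes tested. The calls of Stab1 (adjusted p = 0.0368, then 0.0691) and Ccl8 (0.0490, then 0.0628) were lost without the 3 libraries with raised neutrophil markers.

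LPS in control mice was asked first, since it gives the response to LPS without Gulf War chemicals. Here 4 of 9 genes passed, against 20.4% of all genes tested, and 3 of them rose (Lyve1, Cbr2 and Stab1) against 10.8% of all genes. Ccl24 fell, as did 9.62% of all genes. The median difference of the 9 genes was 0.56, beside -0.02 over all genes tested. Ranges of the LPS and PBS libraries did not overlap for Stab1 (higher, 12.2% of all genes) and Ccl24 (lower, 10.8%). The rises were close to the threshold: Lyve1 did not pass without Ctrl-PBS replicate 1 or 2 or Ctrl-LPS replicate 2 or 4 (adjusted p = 0.0594 to 0.0844), and Stab1 did not without these or Ctrl-PBS replicate 3 (0.0825 to 0.102). Ccl24 passed without any of the 8 libraries. Without the 3 libraries with raised neutrophil markers 5 of 9 genes passed, F13a1 now among them (1.00 ± 0.28, adjusted p = 0.0224), with Lyve1 at 1.28 and Ccl24 at -2.68.

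LPS in GW mice gave 4 of 9 genes that passed, all of them higher (F13a1, Cd163, Lyve1 and Stab1), against 9.53% of all genes in either direction, 4.45% that rose and 5.07% that fell. The median difference of the 9 genes was 0.54, beside -0.04 over all genes. All 4 had ranges that did not overlap, as did 9.22% of all genes with higher values, and Ccl8 did so with lower values (10.4%). Cd163 and F13a1 passed without any single library of the 7. Lyve1 did not pass without GW-LPS replicate 3 (adjusted p = 0.0577) or replicate 4 (0.0510), and Stab1 passed only with all libraries or without GW-PBS replicate 2 (0.0513 to 0.121 without the others). Without the 3 libraries with raised neutrophil markers, of which GW-PBS replicate 1 belongs here, the difference was 1.49 for Cd163, 1.42 for F13a1 and 1.31 for Lyve1, all past the threshold, and 0.57 for Stab1 (adjusted p = 0.103).

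Whether the LPS difference itself depended on the earlier exposure was tested as an interaction. By edgeR 0 of 9 genes passed, against 0% of all genes (2099 genes, or 12.7%, at an unadjusted p under 0.05), with 3 of the 9 genes at an unadjusted p under 0.05 (Mrc1, F13a1 and Ccl24) and 0 called by DESeq2 or limma voom. The largest interaction was that of Ccl24, 1.97 ± 0.64 (adjusted p = 0.353), followed by Mrc1 with 1.23 ± 0.43 (adjusted p = 0.353) and F13a1 with 0.96 ± 0.44 (adjusted p = 0.386). A gene called in one arm and not in the other was therefore not shown to differ between the arms.

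Exposure alone was compared within PBS and within LPS. With PBS, 0 of 9 genes passed by edgeR (0% of all genes), 0 had an unadjusted p under 0.05 (3.75% of all genes), and DESeq2 and limma voom called 0. Ccl8 was the single gene whose ranges did not overlap there (1.1% of all genes with higher values, 0.967% with lower), with a difference of 0.70 ± 0.36 (adjusted p = 1.00). With LPS, 0 of 9 passed by edgeR (0% of all genes), 2 had an unadjusted p under 0.05 (Mrc1 and Ccl24), and the other tools called 0. Over all genes tested 13.7% had such an unadjusted p, DESeq2 called 150 and limma voom 324. Mrc1 was the single gene with ranges apart (6.29% of all genes with higher values, 6.25% with lower). Ccl24 was at 7.69 ± 4.48 CPM in GW-LPS and at 2.69 ± 1.28 CPM in Ctrl-LPS, a difference of 1.51 ± 0.48 (adjusted p = 0.302).

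**Figure D2:**
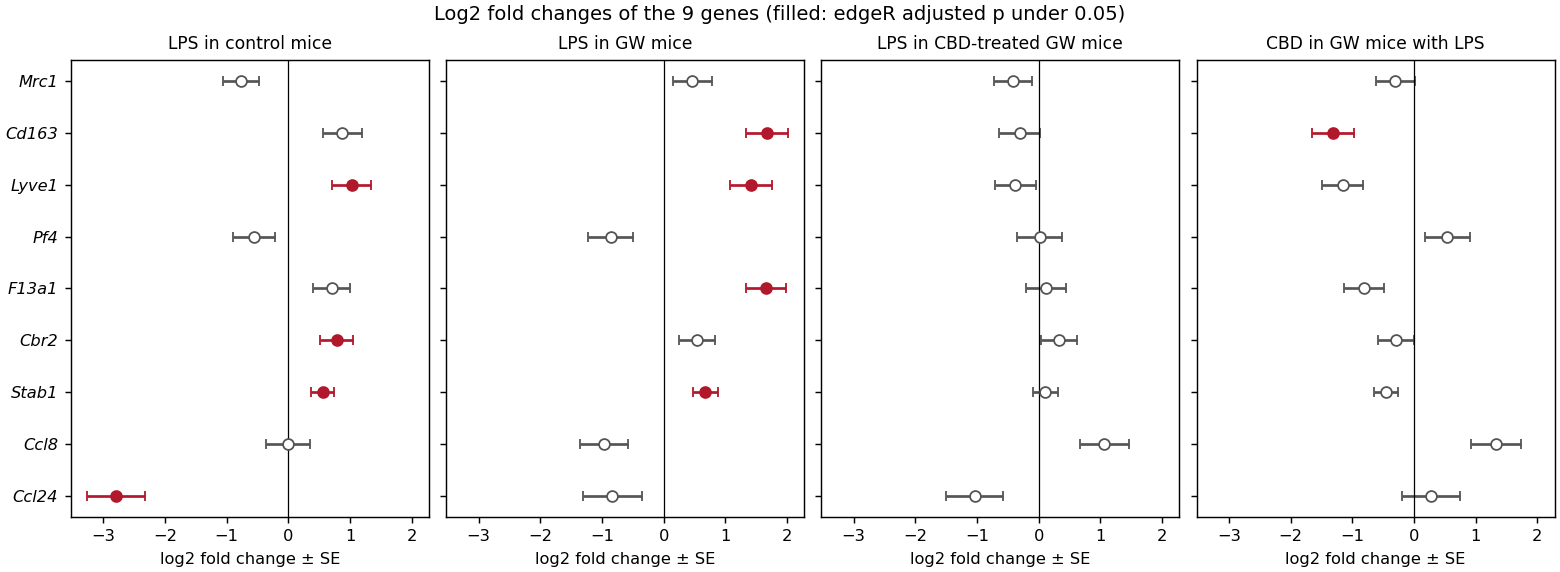
Log2 fold change ± SE of the 9 genes in 4 comparisons (edgeR, 22 libraries in 1 fit), filled where the adjusted p was under 0.05. LPS moved 4 genes past the threshold in control and in GW mice, 0 in CBD-treated GW mice, and CBD lowered Cd163 (-1.31) among LPS-injected GW mice.

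CBD was compared with its carrier in GW mice. With PBS, 0 of 9 genes passed by edgeR (0% of all genes), 1 had an unadjusted p under 0.05 (F13a1, 0.73 ± 0.32, adjusted p = 0.524), DESeq2 called 0 and limma voom 1. Over all genes tested 9.48% had such an unadjusted p, DESeq2 called 0 and limma voom 217. No gene had ranges apart (3.18% of all genes with higher and 5% with lower values). Leaving out GW-CBD-PBS replicate 3 moved Ccl8 from -0.70 to -1.14 (adjusted p = 0.509) and brought Cd163, Lyve1 and F13a1 nearer to 0. Without it F13a1 differed by 0.38 rather than 0.73, Cd163 by 0.36 rather than 0.68 and Lyve1 by 0.08 rather than 0.64, and Cbr2 went from -0.08 to -0.56, with adjusted p = 0.513 to 0.943.

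With LPS, 1 of 9 genes passed, Cd163, which fell by 1.31 ± 0.34 on the log2 scale (adjusted p = 0.0427), from 65.6 ± 34.7 CPM (n = 3) to 26.4 ± 6.97 CPM (n = 4). The share over all genes was 2.31%, of which 1.06% rose and 1.24% fell. Lyve1 (-1.16 ± 0.34, adjusted p = 0.0765), F13a1 (-0.81 ± 0.32, adjusted p = 0.228), Stab1 (-0.46 ± 0.20, adjusted p = 0.279) and Ccl8 (1.33 ± 0.40, adjusted p = 0.0874) did not pass. Ranges were apart for Lyve1 (lower, 6.32% of all genes) and Ccl8 (higher, 6.51%), and not for Cd163. Without GW-LPS replicate 3 the Cd163 difference was -0.84 (adjusted p = 0.388), and the call was also lost without GW-LPS replicate 4 or GW-CBD-LPS replicate 1, 3 or 4 (adjusted p = 0.111 to 0.119). It was lost as well with the replicate number as a block (-1.20, adjusted p = 0.112) and with the compared groups fitted alone (-1.31, adjusted p = 0.103). DESeq2 called 3 of the 9 genes (900 of all genes) and limma voom 6 (3512 of all genes), beside 382 of all genes by edgeR.

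LPS within the CBD-treated mice gave 0 of 9 genes by edgeR, against 0.417% of all genes (0.393% higher and 0.0242% lower), with 2 at an unadjusted p under 0.05 (Ccl8 and Ccl24), 0 called by DESeq2 and 2 by limma voom. Of the 16554 genes tested 11% had such an unadjusted p, DESeq2 called 351 and limma voom 3779. No gene had ranges apart there (8.37% of all genes with higher and 5.79% with lower values), and the median difference was 0.01 for the 9 genes and 0.00 for all genes. Leaving out GW-CBD-PBS replicate 3 moved Cd163 from -0.31 to 0.00, Lyve1 from -0.38 to 0.19 and F13a1 from 0.12 to 0.47, and none passed. The interaction of CBD and LPS was negative for Cd163 (-1.99 ± 0.48, adjusted p = 0.0839), Lyve1 (-1.80 ± 0.48, adjusted p = 0.112) and F13a1 (-1.54 ± 0.46, adjusted p = 0.161) and positive for Ccl8 (2.03 ± 0.56, adjusted p = 0.128). By edgeR 0 of 9 passed, against 0.0181% of all genes (0.0121% higher and 0.00604% lower), with 4 at an unadjusted p under 0.05 (15.3% of all genes). DESeq2 called 4 (380 of all genes) and limma voom 5 (2287 of all genes). Without GW-CBD-PBS replicate 3 the interaction was -1.68 for Cd163, -1.23 for Lyve1, -1.18 for F13a1 and 2.47 for Ccl8 (adjusted p = 0.117 to 0.267). The LPS comparison in GW mice and the CBD comparison with LPS share the 3 GW-LPS libraries with opposite sign, so they are not independent.

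A further 23 genes known from border-associated macrophages were counted beside the 9. All 23 passed the filter. With LPS in control mice 4 rose and 8 fell, against 10.8% and 9.62% of all genes. With LPS in GW mice 4 rose and 7 fell, against 4.45% and 5.07% of all genes. The median difference of the list was -0.11 and -0.10. Igfbp4, an insulin-like growth factor binding protein, fell by 2.08 ± 0.25 and 1.46 ± 0.27 in control and GW mice. Pla2g2d, a secreted phospholipase of tissue myeloid cells, fell by 3.83 ± 0.47 and 4.39 ± 0.55. Slc40a1, the iron exporter ferroportin, fell by 1.52 ± 0.20 and 0.97 ± 0.21, and Selenop, a selenium carrier, by 1.13 ± 0.17 and 1.05 ± 0.19. Among the genes that rose in both arms were Siglec1, Vsig4 and Cd38 (1.74, 2.46 and 1.99 in control mice, 1.03, 1.64 and 1.79 in GW mice, chosen after their values were seen). Siglec1 encodes a sialic acid receptor and Vsig4 a complement receptor of tissue macrophages.

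Of the genes that define the list, Ms4a7 ran from 13.4 to 62.7 CPM and Folr2, a folate receptor, from 1.41 to 5.47 CPM. Ms4a7 fell with LPS in GW mice by 1.44 ± 0.36 (adjusted p = 0.0140) and was at -0.37 ± 0.32 in control mice (adjusted p = 0.446). Folr2 was at -0.11 ± 0.29 and -0.09 ± 0.31 (adjusted p = 0.824 and 0.893). Timd4 (chosen after its values were seen), a phosphatidylserine receptor, was at -0.02 ± 0.33 and -0.07 ± 0.36 (adjusted p = 0.979 and 0.929). In GW mice Lyve1 and Cd163 thus rose while Ms4a7 fell and the Folr2 and Timd4 differences lay within 1 SE of 0. The rest of the list was mixed. Of all 23 genes, 4 rose in GW mice, with Siglec1, Vsig4 and Cd38 among them, and 7 fell, with Ms4a7 among them. Summed over the 23 genes, the level was 3295 to 3824 CPM in Ctrl-PBS, 1732 to 2554 CPM in Ctrl-LPS, 3418 to 3632 CPM in GW-PBS and 1848 to 2546 CPM in GW-LPS, a sum led by Selenop (757 to 2798 CPM).

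CBD among LPS-injected GW mice raised 3 of the 23 genes, against 1.06% of all genes that rose there. They were Pla2g2d (3.29 ± 0.53, adjusted p = 0.00255), Igfbp4 (1.24 ± 0.27, adjusted p = 0.0143) and Slc40a1 (0.85 ± 0.21, adjusted p = 0.0366). Leaving out 1 library gave 1 to 4 called of the 23 here. For LPS it gave 10 to 13 in control mice and 6 to 12 in GW mice. In the test of any difference among the 6 groups 12 of the 23 passed, against 20.1% of all genes. In the other pairwise comparisons and both interactions edgeR called 0 of the 23. GW-CBD-PBS replicate 3 had the highest level of its group for all 23 of these genes, whereas 38.4% of all genes tested were highest in that library. It also held the highest level of all 22 libraries for 9 of the 23, and for Mrc1 and Ccl24 among the 9 marker genes. Its microglial markers (42947 CPM) lay just above those of the other 2 libraries of its group (38616 and 42005 CPM). Markers of other cells were further apart in it: dendritic cell markers summed to 110.8 CPM against 53.1 and 48.8 CPM, and neutrophil markers to 157 CPM against 13.8 and 26.9 CPM. Of the 110.8 CPM, 86.6 CPM was Cd209a, a gene of dendritic cells and macrophages. The defining dendritic cell genes Flt3 and Zbtb46 were highest in GW-PBS replicate 2. Fibroblast and mural markers summed to 10.1 CPM against 2.55 and 2.54 CPM, monocyte markers to 39.99 CPM against 18.2 and 12.03 CPM, and endothelial markers to 50.2 CPM against 36.02 and 32.6 CPM. Whether these cells had a part in its values was not tested. Its part in the group differences is given by the values without it, above.

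**Figure D3:**
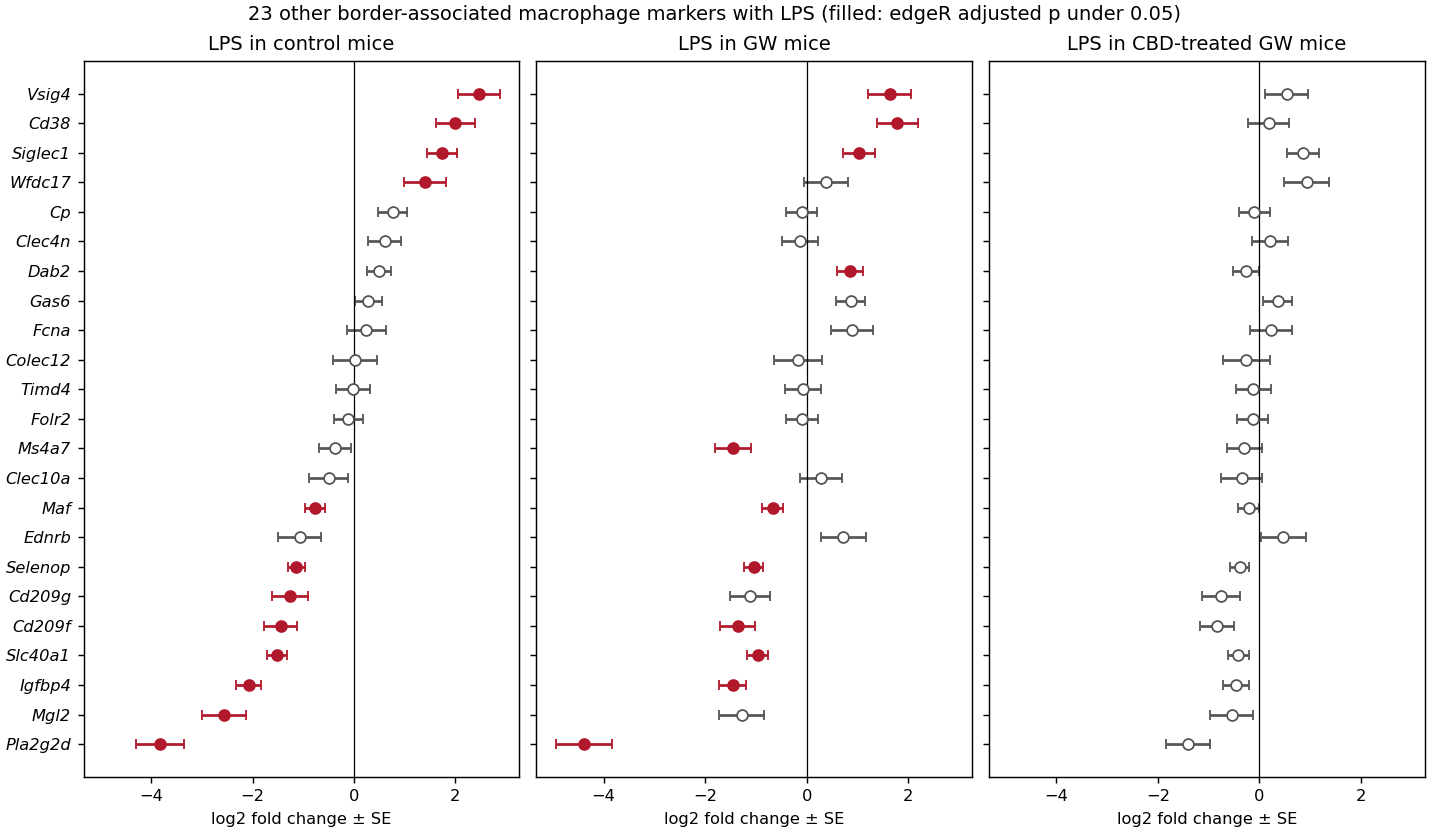
Log2 fold change ± SE with LPS of 23 further genes of border-associated macrophages in control, GW and CBD-treated GW mice, filled where the edgeR adjusted p was under 0.05. Filled points lie on both sides of 0 in the first 2 panels (4 higher and 8 lower, 4 higher and 7 lower) and are absent from the third.

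Markers of other cells were summed per library. The 10 microglial markers summed to 36457 to 45906 CPM in Ctrl-PBS and 24588 to 29963 CPM in Ctrl-LPS, with 7 of 10 genes called lower (9.62% of all genes). In GW mice they summed to 37765 to 47476 CPM with PBS and 20780 to 29917 CPM with LPS, with 6 called lower (5.07% of all genes). With CBD after LPS they were at 33488 to 44412 CPM. The 8 endothelial markers ran from 17.2 to 57.7 CPM over the libraries, with Cldn5 at 0.083 to 12.95 CPM and Cdh5 at no more than 1.02 CPM. The 8 fibroblast and mural markers ran from 1.16 to 14.9 CPM. Blood monocyte markers (10 genes) were at 10.4 to 57.8 CPM outside the 3 libraries with raised neutrophil markers, in which they were at 159 to 1894 CPM. Dendritic cell markers (7 genes) were at 59.2 to 100.04 CPM in Ctrl-PBS, 12.6 to 27.8 CPM in Ctrl-LPS, 56.9 to 70.5 CPM in GW-PBS and 28.9 to 46.6 CPM in GW-LPS, and at 48.8 to 110.8 CPM in GW-CBD-PBS and 31.6 to 56.5 CPM in GW-CBD-LPS. The member with the highest median was Cd209a (34.3 CPM, range 3.24 to 86.6 CPM). The defining genes Flt3 and Zbtb46 had medians of 2.26 and 3.22 CPM. Erythroid markers (6 genes) were at 273 to 1298 CPM in Ctrl-PBS, 72.2 to 429 CPM in Ctrl-LPS, 250.4 to 1765 CPM in GW-PBS and 63.8 to 130.2 CPM in GW-LPS. Of the 6, 4 and 5 were called lower after LPS in control and GW mice, against 9.62% and 5.07% of all genes. Lymphocyte markers ran from 1.15 to 79.1 CPM and neuronal markers from 1.00 to 7.05 CPM, with 8 and 6 genes. Astrocyte and oligodendrocyte markers, 6 genes each, ran from 161 to 268 CPM and from 119 to 459.8 CPM. The defining gene Cd3e had no count in 14 of 22 libraries, Syt1 in 8 and Col1a1 in 5. The other defining genes of these lists were higher, with Cd79a at 0.53 to 33.7 CPM, Snap25 at 0.77 to 5.28 CPM and Dcn at 0 to 3.57 CPM. None of these lists had a member called higher after LPS in control or GW mice, where Cd163, Lyve1, F13a1, Stab1 and Cbr2 had their rises. Over all genes 10.8% and 4.45% were called higher there. The parts of these cells in the values of the 9 genes were not tested.

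Within groups, 6 of the 36 pairs of the 9 genes were related from library to library by Pearson r, of which 5 lay among Mrc1, Cd163, F13a1 and Stab1. Deviations of log2 CPM from the group means were correlated for all pairs, with p from 100000 permutations of libraries within groups. Mrc1 and F13a1 had r = 0.79 (permutation p = 0.00035, adjusted p = 0.00738) and rho = 0.80 (p = 0.00039), and r = 0.72 without the 2 libraries farthest from the median of Mrc1. Cd163 and F13a1 had r = 0.73 (permutation p = 0.00041, adjusted p = 0.00738) and rho = 0.77 (p = 0.00033), and r = 0.84 without 2 libraries. Mrc1 and Cd163 (r = 0.66, rho = 0.75, permutation p = 0.00373 and 0.0009, adjusted p = 0.0336), Cd163 and Stab1 (r = 0.61, rho = 0.62, p = 0.0037 and 0.00777, adjusted p = 0.0336) and F13a1 and Stab1 (r = 0.67, rho = 0.59, p = 0.00786 and 0.0126, adjusted p = 0.0472) also passed. Their r without 2 libraries was 0.62, 0.57 and 0.64. For rho the permutation test gave adjusted p = 0.0559 for Cd163 and Stab1 and 0.0755 for F13a1 and Stab1, so these passed by r only. Stab1 and Ccl8 were inversely related (r = -0.61, rho = -0.65, permutation p = 0.00563 and 0.00443, adjusted p = 0.0405), with r = -0.58 without 2 libraries. Mrc1 and Stab1 did not pass (r = 0.59, rho = 0.55, permutation p = 0.0163 and 0.0246, adjusted p = 0.0733), nor did Pf4 and Stab1 (r = -0.53, rho = -0.52, p = 0.0289 and 0.0355, adjusted p = 0.116). Without the 3 libraries with raised neutrophil markers, Mrc1 and Cd163 (r = 0.64, permutation test, adjusted p = 0.0544), Cd163 and Stab1 (r = 0.57, 0.0544) and F13a1 and Stab1 (r = 0.64, 0.157) did not pass either. Lyve1 had no pair that passed, its closest being with Ccl24 (r = 0.53, rho = 0.49, permutation p = 0.0466 and 0.0544, adjusted p = 0.153).

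**Figure D4:**
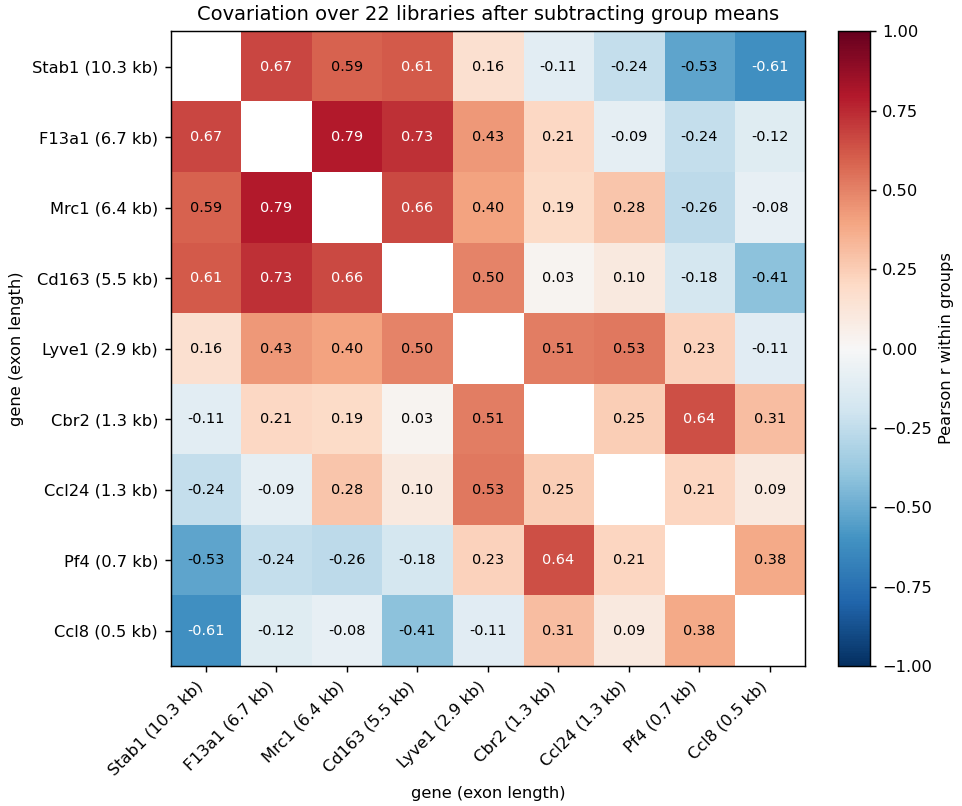
Pearson r between the 9 genes over 22 libraries after subtraction of group means, with genes ordered by exon length (10.288 kb for Stab1 to 0.511 kb for Ccl8). Among the 4 longest genes r is 0.59 to 0.79 and every pair passed by r but Mrc1 and Stab1 (0.59). Against Stab1, Ccl8 (-0.61) passed and Pf4 (-0.53) did not.

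Mrc1, Cd163, F13a1 and Stab1 are also the 4 longest of the 9 genes. Libraries differed in the balance of long and short transcripts, measured as the median log2 deviation of 4144 protein-coding genes with at least 5 kb of exon minus that of 550 genes with at most 1.5 kb. This index ran from -1.03 in GW-PBS replicate 1 and -0.80 in Ctrl-LPS replicate 1 to 0.65 in GW-CBD-PBS replicate 2. Its group medians were 0.11 in Ctrl-PBS, -0.34 in Ctrl-LPS, -0.09 in GW-PBS, 0.13 in GW-LPS, 0.54 in GW-CBD-PBS and 0.10 in GW-CBD-LPS. Within groups, Pf4 (0.721 kb) was related to it with r = -0.85 and rho = -0.88 (permutation p = 1e-05 for both, the smallest that 100000 permutations give, adjusted p = 9e-05 over 9 genes), and r = -0.85 without 2 libraries. Stab1 (10.288 kb) had r = 0.71 and rho = 0.67 (permutation p = 0.00849 and 0.00818, adjusted p = 0.0342), and r = 0.66 without 2 libraries. F13a1 (r = 0.61, rho = 0.49, permutation p = 0.0220 and 0.0463, adjusted p = 0.0419), Mrc1 (r = 0.59, rho = 0.60, p = 0.0114 and 0.0108, adjusted p = 0.0342) and Cbr2 (r = -0.48, rho = -0.44, p = 0.0233 and 0.0607, adjusted p = 0.0419) also passed. Without the 2 farthest libraries their r was 0.35, 0.46 and -0.70.

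Lyve1 (2.919 kb) and Ccl24 were not related to the index at this number of libraries (r = 0.04, rho = 0.06, permutation p = 0.869 and 0.816, adjusted p = 0.869; and r = -0.11, rho = -0.08, p = 0.653 and 0.765, adjusted p = 0.735), and Cd163 and Ccl8 did not pass (adjusted p = 0.0714 and 0.0880). A fit that held the index as a covariate was added (chosen after seeing the data). The share called over all genes was not computed for that fit, so its counts of called genes have no background beside them. In that fit LPS in GW mice gave 4 genes, with 1.49 for Cd163, 1.51 for F13a1, 1.41 for Lyve1 and 0.51 for Stab1. In control mice 6 genes then passed, 4 of them higher and Ccl24 and Pf4 lower. Those higher were Cd163 (1.12, adjusted p = 0.0112), F13a1 (0.96, 0.0116), Lyve1 (1.04, 0.0277) and Stab1 (0.74, 0.000566), and Cbr2 did not pass (0.61, 0.0705). Pf4 in that fit fell by 1.02 ± 0.20 on the log2 scale in control mice (adjusted p = 0.00094), against -0.45 ± 0.21 in GW mice (adjusted p = 0.178). Cd163 with CBD after LPS was at -1.24 (adjusted p = 0.0224). What made the index differ between libraries was not tested.

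**Figure D5:**
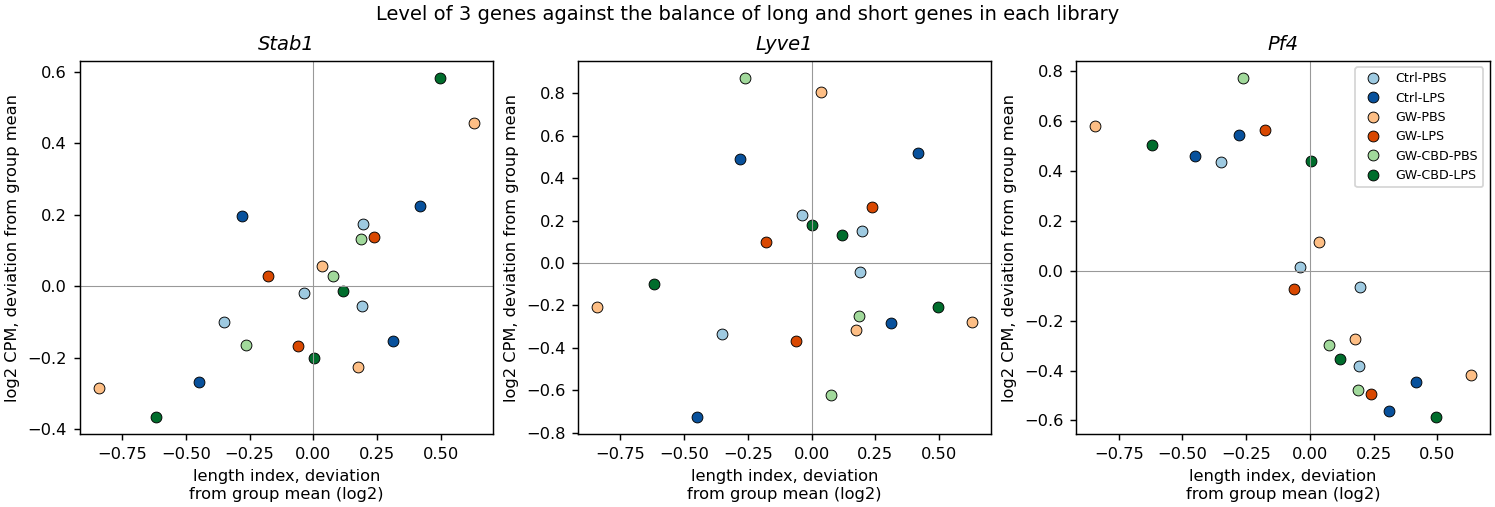
Deviation of log2 CPM from the group mean (vertical) against deviation of the long-against-short index (horizontal, log2) for Stab1, Lyve1 and Pf4, 1 point per library, coloured by group. Stab1 climbs with the index (r = 0.71), Pf4 declines (r = -0.85) and Lyve1 shows no slope (r = 0.04).

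Genes with the most similar pattern over all 22 libraries were found by Pearson r of log2 CPM among 9159 genes of at least 5 CPM, as a description. Nearest to Cd163 were Mcl1 (0.914), Ugcg (0.885) and Kdm7a (0.885), and to F13a1 Spop (0.875), Eps8 (0.873) and Riok3 (0.865). Nearest to Stab1 were Ssh2 (0.907), Stat3 (0.905) and Gramd1a (0.903), and to Mrc1 Dcun1d4 (0.877), Wwp1 (0.867) and Fam168b (0.828). Lyve1 had Tsc22d3 (0.808), Trpv4 (0.794) and Dok3 (0.776), of which Tsc22d3 encodes the glucocorticoid-induced leucine zipper. Cbr2 had Fcgrt (0.843), Aven (0.82) and Dpagt1 (0.819), and Pf4 had Gabarapl2 (0.892), Tceal8 (0.876) and Rab11a (0.869). Ccl8 had Lhpp (0.807), Prim2 (0.806) and Ndufaf7 (0.803), and Ccl24 had Cask (0.911), Mtss1 (0.897) and Cd209a (0.892), the last a lectin of dendritic cells and macrophages. The 9 marker genes themselves were left out of this search, so it does not say how alike they are to each other. All libraries share groups and the length balance described above, and within groups r fell to 0.584 for Lyve1 and Tsc22d3, 0.587 for Ccl24 and Cd209a and 0.804 for Cd163 and Mcl1.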

How the data were processed

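The deposited file is 1 table of gene-level read counts for 54532 genes in 22 libraries of 6 groups. The authors made the counts from poly(A)-enriched stranded paired-end libraries aligned to GRCm38 (mm10), per the labels' protocols. For the aligner, the counting program, the strand setting and the annotation release no source used here gives a name. Library totals were 28676930 to 40458326 counts, and libraries of a group differed by more than sampling noise (chi-square per degree of freedom 11.8 to 243), so each was counted as 1 replicate. Of the symbols, 27 stored as dates were changed back, and 100 occurred more than once, none of them among the 9 genes.

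Groups came from the labels. Counts were tested with edgeR 4.0.16 (quasi-likelihood test, R 4.3.3) in 1 fit over all 22 libraries with a term per group, TMM factors and edgeR's filter on low counts, which left 16554 genes. A gene was called at a Benjamini-Hochberg adjusted p under 0.05 over these genes, and every adjusted p without another source named comes from this edgeR test. DESeq2 1.42.0 and limma 3.58.1 (voom with sample quality weights) were alternatives, as were other size factors, no filter, a replicate block, the compared groups alone and leaving out libraries. The length index and the fit without 2 libraries that stood apart were chosen after seeing the data. The test was checked on simulated data. Levels are CPM computed here. Correlations used deviations of log2 CPM from group means, with 100000 permutations of libraries within groups. The members and gene lists were chosen with earlier results of these data known. Genes named beyond the 9 are the first 2 of each marker list, the 3 of the 23-gene list with the smallest p among those called, the 3 genes most like each member, the genes of the sort gate, and those said to be chosen after their values were seen. Start regions are from RefSeq (GRCm38.p6), and gene positions and exon lengths from a GRCm38 annotation.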

Additional observations from a re-analysis of the deposited data

Results flagged for a closer look

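Of 36 combinations of gene and group with 4 libraries, 2 held a library whose gap to its nearest neighbour was large for the range of its group, and chance flags about 1 in 20 such groups. Lyve1 in GW-PBS replicate 4 was at 22.25 CPM, beside 10.2 to 11.04 CPM in the other libraries of its group. Ccl8 in GW-PBS replicate 3 was at 18.74 CPM, beside 14.03 to 14.7 CPM in the others. Without GW-PBS replicate 4 the LPS difference of Lyve1 in GW mice was 1.77 (adjusted p = 0.00352).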

How the results depend on the processing

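None of the 9 differences called for the 9 genes changed sign under any alternative, while some that did not pass did, such as Lyve1 with LPS in CBD-treated mice (0.19 without GW-CBD-PBS replicate 3, against -0.38). In LPS-injected GW mice given CBD, where 1 of the 9 genes passed, DESeq2 called 3 (900 of all genes) and limma voom 6 (3512 of all genes). The replicate block gave 0, the compared groups alone 0 and the fit without GW-CBD-PBS replicate 3 and GW-LPS replicate 3 0. For LPS in control mice, where 4 passed, no filter on low counts gave 2 and limma voom 7 (4494 of all genes). Calls over all genes were counted for the main fit, DESeq2 and limma voom alone. For LPS in CBD-treated mice limma voom called 2 (3779 of all genes), and for CBD with PBS 1 (217 of all genes). The interaction of CBD and LPS had 0 by edgeR, while DESeq2 called 4 (380 of all genes) and limma voom 5 (2287 of all genes). The fit without GW-CBD-PBS replicate 3 and GW-LPS replicate 3 gave 0 for it. The cause was not tested. Leaving out 1 library gave 1 to 5 genes for LPS in control mice, 2 to 4 for LPS in GW mice, 0 to 2 for CBD with LPS, 0 to 1 for the interaction of CBD and LPS and 4 to 6 for any difference. Replicate numbers did not pair the libraries: over 51 same-numbered pairs the median correlation of deviations was 0.0141, 11 pairs were over 0.1, and 5 of 22 libraries correlated best with their own number. Libraries of a group differed by more than counting noise, so the spread between 3 or 4 libraries sets the errors given.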
